A study of Homo sapiens with 4 samples.

Results

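Cyclin-dependent kinases (CDKs) drive cells through the cell cycle, and a small set of genes holds them back or releases them. The genes described here are 10 members of that set. They comprise the 3 CIP/KIP inhibitors (CDKN1A, CDKN1B and CDKN1C), the 4 INK4 inhibitors (CDKN2A, CDKN2B, CDKN2C and CDKN2D), the WEE1 family kinases WEE1 and PKMYT1, and the phosphatase CDC25A, which opposes these kinases. Members were listed by gene symbol, with earlier results of these data known, and all 10 were found among the 56306 gene rows of the count table. All 10 were also among the 15529 genes that passed the filter on low counts. CDKN1C, the scarcest, passed on 3 of 4 libraries, including 1 from the invasion zone.

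The data were bulk RNAseq counts from MV3 cells, an established and highly metastatic human melanoma line that carried an H2B-GFP nuclear label in both groups. Spheroids of 50000 cells were embedded in collagen I and dissected on day 2, and the labels name no treatment. The core group was the spheroid body, taken with a 1 mm punch, and the 3D invasion group was the surrounding collagen with the cells that had left the spheroid, taken with a 3 mm punch. Each group had 2 libraries, numbered 1 and 2, and the sources used here do not say whether they came from separate cultures. The p-values therefore concern only these libraries. The edgeR test also borrows information on spread from all genes, so its p-value does not measure a gene's own spread alone. The punch cut vertically, so the core can hold invading cells that lay above or below it. MV3 is 1 line. In bulk samples, fewer cells expressing a gene and less RNA per cell cannot be told apart.

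The libraries differed in depth by replicate number. Replicate 1 had 36363358 counts in the core and 37591782 in the invasion zone, and replicate 2 had 14983135 and 11789243. Expression is given as CPM, that is, counts scaled to a common library size with TMM factors. The label melanoma was checked against 10 lineage markers. SOX10, a defining factor of the melanocytic lineage, and TYR, the key enzyme of pigment synthesis, had 0 counts in all 4 libraries. Differentiation markers of melanocytes were thus absent or low, since MITF, the lineage's central transcription factor, had 1.71 to 3.36 CPM. CSPG4 and MCAM, both melanoma surface antigens, were expressed at 36.8 to 51.3 and 18.5 to 31.4 CPM. The 10 markers together had 59.2 and 78 CPM in the core against 77.8 and 88.2 in the invasion zone. CSPG4 and MCAM made up most of these sums, and the markers not named here had at most 1.01 CPM each. Of 12 markers of other cell types, CD3E and HBB had 0 counts throughout and all others except PECAM1 had at most 0.426 CPM. PECAM1, an adhesion molecule of endothelium, had 18.1 and 7.42 CPM in the core against 5.22 and 0.925 CPM in the invasion zone. PECAM1 therefore moved in the same direction as the inhibitors that were lower, while VWF and CDH5, which define endothelium, stayed at or near 0. The 12 markers together had 18.9 and 7.88 CPM in the core against 6.13 and 1.01 in the invasion zone, and their part in the results was not tested.

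As background, INK4 proteins bind CDK4 and CDK6 and keep them from their cyclins, whereas CIP/KIP proteins bind cyclin-CDK complexes, above all those of CDK2. WEE1 and PKMYT1 act later and by another route. They place inhibitory phosphates on CDK1, and WEE1 also on CDK2, and CDC25 phosphatases take these phosphates off again. In melanoma the INK4 locus on chromosome 9 is known as a frequent site of deletion, and its gene CDKN2A is the best known susceptibility gene. Many of these proteins are controlled by phosphorylation and degradation, which RNA counts do not show.

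The promoter sequences of CDC25A and CDKN2B are shown as examples, because CDC25A was higher and CDKN2B lower in both replicates of the invasion zone. The sequences are the 250 bases before the transcription start in RefSeq on GRCh38.p14, at chr3:48188418-48188667 for CDC25A and chr9:22009306-22009555 for CDKN2B, both on the minus strand and written 5′ to 3′. Capitals mark the letters of an E2F motif.
CDC25A: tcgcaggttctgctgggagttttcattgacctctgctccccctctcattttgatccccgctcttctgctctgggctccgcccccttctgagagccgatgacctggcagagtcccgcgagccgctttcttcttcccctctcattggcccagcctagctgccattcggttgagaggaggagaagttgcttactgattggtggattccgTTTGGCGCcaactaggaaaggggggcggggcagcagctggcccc
CDKN2B: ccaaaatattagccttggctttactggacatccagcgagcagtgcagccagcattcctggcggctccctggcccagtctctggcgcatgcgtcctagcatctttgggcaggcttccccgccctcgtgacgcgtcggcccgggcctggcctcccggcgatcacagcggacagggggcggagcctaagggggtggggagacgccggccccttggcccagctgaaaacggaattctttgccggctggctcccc
The search covered 10 promoters of 7 members (CDKN1A, CDKN1B, CDKN2A, CDKN2B, CDKN2C, CDKN2D and CDC25A), each of 300 bases from 250 before to 50 after the start, on both strands. WEE1, PKMYT1 and CDKN1C had no entry in the promoter set used and were not searched. E2F factors drive many S phase genes, and their motif was searched as TTTCCCGC, TTTCGCGC, TTTGCCGC or TTTGGCGC. Of the 10 promoters, 1 held it, that of CDC25A, where TTTGGCGC began at position -44 from the start. The motif was present in 1164 of 35116 promoters of the same length (3.31%). The CHR element TTTGAA, which recurs in genes of late cell cycle phases, was in 0 of the 10 promoters and in 5324 of the 35116 (15.2%). A match gives only the letters and does not show that a factor binds there.

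To ask how the 2 zones differed, counts were fitted with edgeR's quasi-likelihood test over all 15529 genes, with Benjamini-Hochberg adjustment and the core as reference. Calls needed a change of 2-fold or more and an adjusted p under 0.05. The 10 members did not share a direction, and 8 of them had a fitted log2 fold change below 0, as had 7856 of the 15529 genes tested. PKMYT1 and CDC25A were 3.07-fold and 2.53-fold higher in the invasion zone, CDKN2B and CDKN1C were 2.92-fold and 2.84-fold lower, CDKN1B was 1.95-fold lower, CDKN2A was 1.24-fold lower, and CDKN1A, CDKN2C, CDKN2D and WEE1 stayed within 1.14-fold of the core. None of the 10 was called (0 higher, 0 lower), and neither was any other gene (0% higher and 0% lower of all genes tested). The smallest adjusted p over all genes was 0.103. Before adjustment, 2 members were higher (PKMYT1 and CDC25A) and 1 was lower (CDKN2B) by 2-fold with p under 0.05, as were 3.19% and 6.41% of all genes. DESeq2 called the same 3 genes, where 2.53% of the 13751 genes with an adjusted p were called higher and 4.2% lower, and limma voom called 0 of the 10.

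Libraries with the same number deviated together from their zone means, and the fit with the replicate number as a block called 2 members higher and 2 lower, where 3.79% of all genes were called higher and 7.39% lower. Those called were PKMYT1 and CDC25A on the higher side and CDKN2B and CDKN1C on the lower side. With no fold minimum, the adjusted p with the block was under 0.05 for 2 higher and 4 lower members, CDKN1B and CDKN2A being added, where 20% of all genes were higher and 20.1% lower. For 2 members both libraries of the invasion zone exceeded both of the core, for 5 they lay below both, and for 3 the zones overlapped. Among all genes tested, 28.1% lay above and 30.3% below. PKMYT1 and CDC25A are among the genes that the study itself selected on these libraries, so their direction is not independent evidence.

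**Figure D1:**
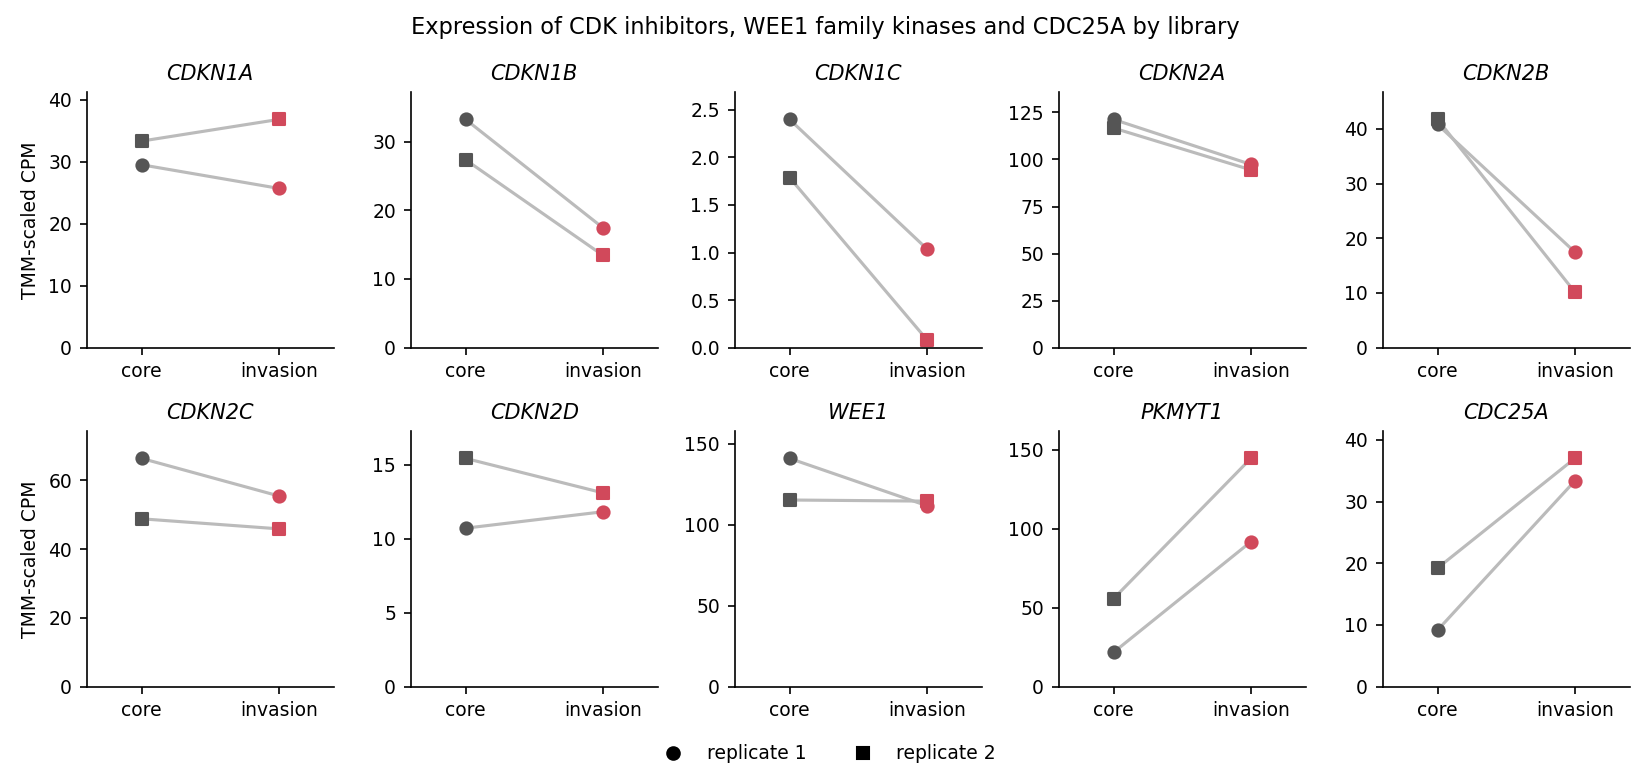
TMM-scaled CPM of each member in the core and the invasion zone, with each vertical axis starting at 0. Circles are replicate 1, squares are replicate 2 and lines join libraries with the same number. PKMYT1 and CDC25A go up in both replicates, and CDKN1B, CDKN1C, CDKN2A and CDKN2B go down in both. CDKN2C and WEE1 also go down, but within replicate 2 by log2 differences of only -0.09 and -0.01. The lines of CDKN1A and CDKN2D go opposite ways.

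The CIP/KIP inhibitors ranged from overlapping zones for CDKN1A to a transcript with 1 count in 1 invasion zone library for CDKN1C. CDKN1A (ENSG00000124762, chromosome 6 of GRCh38, 36676460 to 36687337, plus strand) encodes p21, an inhibitor that is induced after DNA damage. It had 29.5 and 33.3 CPM in the core against 25.7 and 36.8 in the invasion zone. The zones overlapped, and the invasion zone was lower within replicate 1 and higher within replicate 2 (log2 differences of -0.20 and 0.14). The fitted log2 fold change was -0.02 (standard error 0.22, adjusted p = 0.974 by edgeR), with a 95% interval from -0.57 to 0.54. With the replicate block the interval narrowed to -0.32 to 0.24, so that a change of 2-fold lay outside both intervals.

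CDKN1B (ENSG00000111276, chromosome 12, 12685498 to 12722369, plus strand) encodes p27, which accumulates in resting cells and restrains CDK2. It had 33.2 and 27.4 CPM in the core against 17.5 and 13.5 in the invasion zone. Both invasion zone libraries were below both core libraries, by nearly the same amount within each replicate (log2 differences of -0.93 and -1.02). The log2 fold change was -0.96 (standard error 0.21, adjusted p = 0.113), and with the replicate block it was -0.97 (standard error 0.12, adjusted p = 0.000643), just short of the 2-fold minimum. Dropping core replicate 2 gave -1.09 and dropping invasion zone replicate 1 gave -1.18, both beyond 2-fold. Dropping core replicate 1 or invasion zone replicate 2 gave -0.80 in each case, short of 2-fold. The direction of CDKN1B thus held with any library dropped, but the 2-fold minimum was not always reached.

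CDKN1C (ENSG00000129757, chromosome 11, 2883213 to 2885775, minus strand) encodes p57, an inhibitor of imprinted expression that is mostly active in development. It had 86 and 27 counts in the core and 39 and 1 in the invasion zone, or 2.40, 1.79, 1.04 and 0.0841 CPM. Both invasion zone libraries were lower, but the size of the difference rests on few counts. Together the core had 2.72 times the depth-scaled counts of the invasion zone (exact 95% interval 1.88 to 4, for counting error alone). Within replicate 1 the ratio was 2.28 (1.54 to 3.42), and within replicate 2, with 1 count in the invasion zone, it was 21.2 (3.5 to 870). The fitted log2 fold change was -1.51 (standard error 0.63, adjusted p = 0.208) and -1.55 with the replicate block (standard error 0.36, adjusted p = 0.0103). Without invasion zone replicate 1 the estimate was -4.59 and without invasion zone replicate 2 it was -1.05.

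Of the INK4 inhibitors, CDKN2B differed most between the zones and CDKN2A, its neighbour, far less. CDKN2B (ENSG00000147883, chromosome 9, 22002903 to 22009305, minus strand) encodes p15INK4b, which TGF-β signalling is known to induce. It had 40.8 and 41.7 CPM in the core against 17.5 and 10.2 in the invasion zone. The core libraries were almost equal, and both invasion zone libraries lay at less than 20 CPM. The log2 fold change was -1.54 (standard error 0.27, adjusted p = 0.112), with a 95% interval from -2.23 to -0.86. With the replicate block it was -1.55 (standard error 0.18, adjusted p = 0.000453). Leaving out each library in turn gave log2 fold changes from -2.02 to -1.24.

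CDKN2A (ENSG00000147889, chromosome 9, 21967752 to 21995301, minus strand) encodes both p16INK4a and, through another first exon and reading frame, p14ARF, and its count does not separate them. It had 121 and 117 CPM in the core against 97.4 and 94.5 in the invasion zone. The gene was expressed in both zones, with means of 119 ± 3.27 and 95.9 ± 2.05 CPM (SD, n = 2), and replicates agreed closely. The log2 differences within the replicates were -0.32 and -0.30. The fitted value was -0.31 without the block (standard error 0.13, adjusted p = 0.206) and -0.31 with it (standard error 0.08, adjusted p = 0.0145), where DESeq2 with the block gave an adjusted p of 0.0573. Of its 3885 exonic bases, 593 are shared with CDKN2B-AS1 on the opposite strand, and no source used here gives the strand setting of the counting. CDKN2B-AS1 itself had 0.925 to 1.53 CPM.

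The ratio of CDKN2B to CDKN2A within each library, which does not depend on library scaling and was added after the values were seen, was 0.336 and 0.358 in the core. In the invasion zone it was 0.18 and 0.108. The ratio was thus lower in both invasion zone libraries, by 2.5-fold on average (log2 difference -1.32). The exact two-sided permutation test over the 4 libraries gave p = 0.333, the smallest that 2 against 2 libraries allow.

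CDKN2C and CDKN2D, which encode p18INK4c and p19INK4d, had overlapping values in the 2 zones. CDKN2C (ENSG00000123080, chromosome 1, 50960745 to 50974634, plus strand) had 66.4 and 48.8 CPM in the core against 55.5 and 45.9 in the invasion zone. Its spread between replicates exceeded its spread between zones, and the log2 fold change was -0.18 (95% interval -0.70 to 0.33, adjusted p = 0.613). CDKN2D (ENSG00000129355, chromosome 19, 10566460 to 10569059, minus strand) had 10.7 and 15.4 CPM in the core against 11.8 and 13.1 in the invasion zone. Both invasion zone libraries lay between the core libraries, with a log2 fold change of -0.06 (95% interval -0.69 to 0.57, adjusted p = 0.909). With the replicate block neither passed, at adjusted p of 0.171 and 0.938. CDKN2C shares 617 of its 3018 exonic bases with a gene on the opposite strand, CDKN1A 146 of 2996 likewise, and WEE1 104 of 9251 with a gene on its own strand.

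Over the 7 inhibitors, 0 had both invasion zone libraries above both core libraries, 4 had both below and 3 overlapped, where 28.1% of all genes tested lay above and 30.3% below. The fitted log2 fold changes of all 7 were below 0, from -1.54 for CDKN2B to -0.02 for CDKN1A, but the sign of CDKN1A, CDKN2C and CDKN2D turned with a library left out. Their median was -0.31, against -0.01 over all genes tested. It was -0.96 for the 3 CIP/KIP genes, which is the value of CDKN1B, and -0.25 for the 4 INK4 genes. The families overlapped, with CIP/KIP from -1.51 to -0.02 and INK4 from -1.54 to -0.06.

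**Figure D2:**
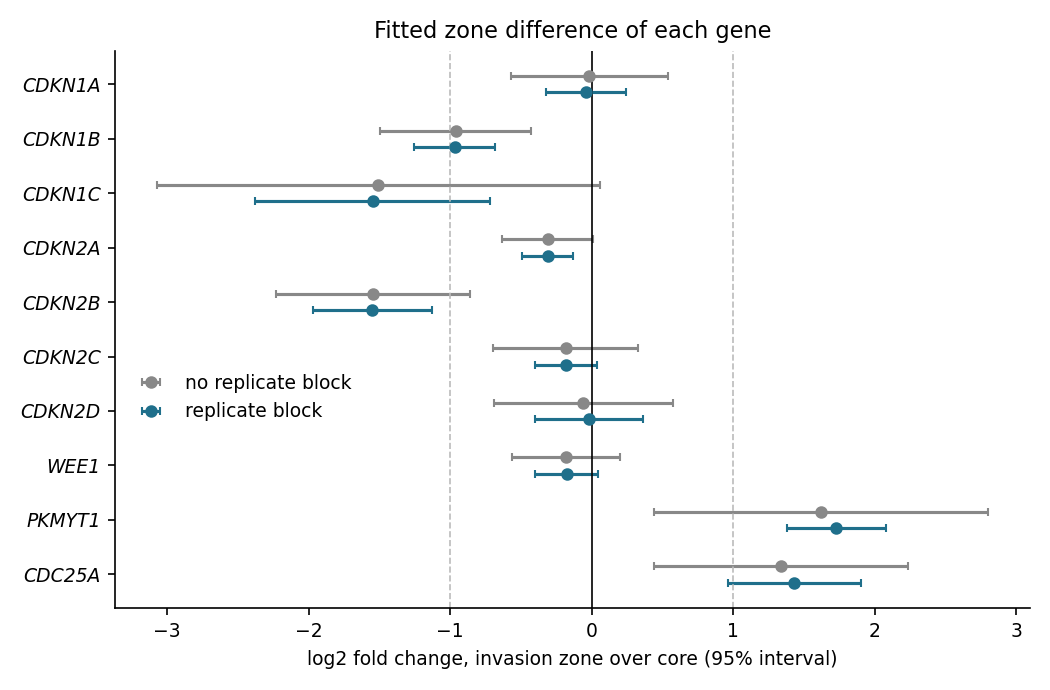
Fitted log2 fold change of each member, invasion zone over core, with 95% intervals from edgeR without the replicate block (grey) and with it (blue); dashed lines mark a 2-fold change. With the block the intervals of PKMYT1 (1.38 to 2.08) and CDC25A (0.96 to 1.90) lie above 0 and those of CDKN1B, CDKN1C, CDKN2A and CDKN2B lie below 0.

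The WEE1 family kinases differed from each other. WEE1 (ENSG00000166483, chromosome 11, 9573670 to 9593457, plus strand) is the nuclear kinase that phosphorylates CDK1 and CDK2 on an inhibitory tyrosine. It had 141 and 115 CPM in the core against 112 and 115 in the invasion zone. Core replicate 1 was the highest and the others were nearly equal, so that the zones were separated only by 115.3 against 114.6 CPM. The log2 fold change was -0.18 (standard error 0.15, 95% interval -0.56 to 0.20, adjusted p = 0.499), and without core replicate 1 it was -0.02. With the replicate block the adjusted p was 0.178.

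PKMYT1 (ENSG00000127564, chromosome 16, 2968024 to 2980479, minus strand) is the membrane-bound relative of WEE1 that acts on CDK1. It had 21.7 and 55.7 CPM in the core against 91.7 and 144.5 in the invasion zone. Both invasion zone libraries were higher, and within each zone replicate 2 was higher than replicate 1. The log2 fold change was 1.62 (standard error 0.47, adjusted p = 0.136), and with the replicate block it was 1.73 (standard error 0.15, adjusted p = 0.000175). It was 1.09 without core replicate 1 (adjusted p = 0.114) and was 2.45 without core replicate 2. Of its 4974 exonic bases, 1585 are shared with KREMEN2 and PAQR4 on the opposite strand. KREMEN2 had at most 27 counts in a library, whereas PAQR4 had 14, 26.7, 34.9 and 46 CPM in core 1, core 2, invasion zone 1 and invasion zone 2 and was itself higher in the invasion zone with the block (log2 fold change 1.07, adjusted p = 0.000874). How reads in the shared bases were assigned was not tested.

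CDC25A (ENSG00000164045, chromosome 3, 48157146 to 48188417, minus strand) removes the inhibitory phosphates from CDK2 and CDK1 and carries the E2F letters in the promoter printed above. It had 9.15 and 19.2 CPM in the core against 33.3 and 37.0 in the invasion zone. Both invasion zone libraries were higher than both core libraries, and the core libraries differed from each other more than the invasion zone libraries did. The log2 fold change was 1.34 (standard error 0.36, adjusted p = 0.125), and with the replicate block it was 1.43 (standard error 0.20, adjusted p = 0.00103). Without core replicate 1 it was 0.88 (adjusted p = 0.232) and without core replicate 2 it was 1.95. In these fits without the block, the size of the difference for both PKMYT1 and CDC25A depended on which core library was left out. Within replicates 1 and 2 the log2 differences were 2.079 and 1.375 for PKMYT1 and 1.865 and 0.945 for CDC25A.

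To set the phosphatase against the kinases, the log2 ratio of their CPM was taken within each library. It compares libraries and not the levels of the genes, whose lengths differ. CDC25A to WEE1 was -3.95 and -2.59 in the core and -1.75 and -1.63 in the invasion zone. It was higher in both invasion zone libraries, by 2.98-fold on average, with log2 differences of 2.20 within replicate 1 and 0.95 within replicate 2. The mean difference of 1.58 became 0.90 if core replicate 1 was left out and 2.26 if core replicate 2 was. CDC25A to PKMYT1 was -1.25 and -1.54 in the core and -1.46 and -1.97 in the invasion zone. These ranges overlapped, and the mean log2 difference of -0.32 was small beside the change of either gene, with -0.21 and -0.43 within the replicates. The exact two-sided permutation test gave p = 0.333 for CDC25A to WEE1, the smallest possible with 2 libraries per zone, and p = 0.667 for CDC25A to PKMYT1. PKMYT1 to WEE1, added after the values were seen, was -2.70 and -1.05 in the core and -0.29 and 0.33 in the invasion zone, a mean difference of 1.90 (p = 0.333 by the same exact test).

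**Figure D3:**
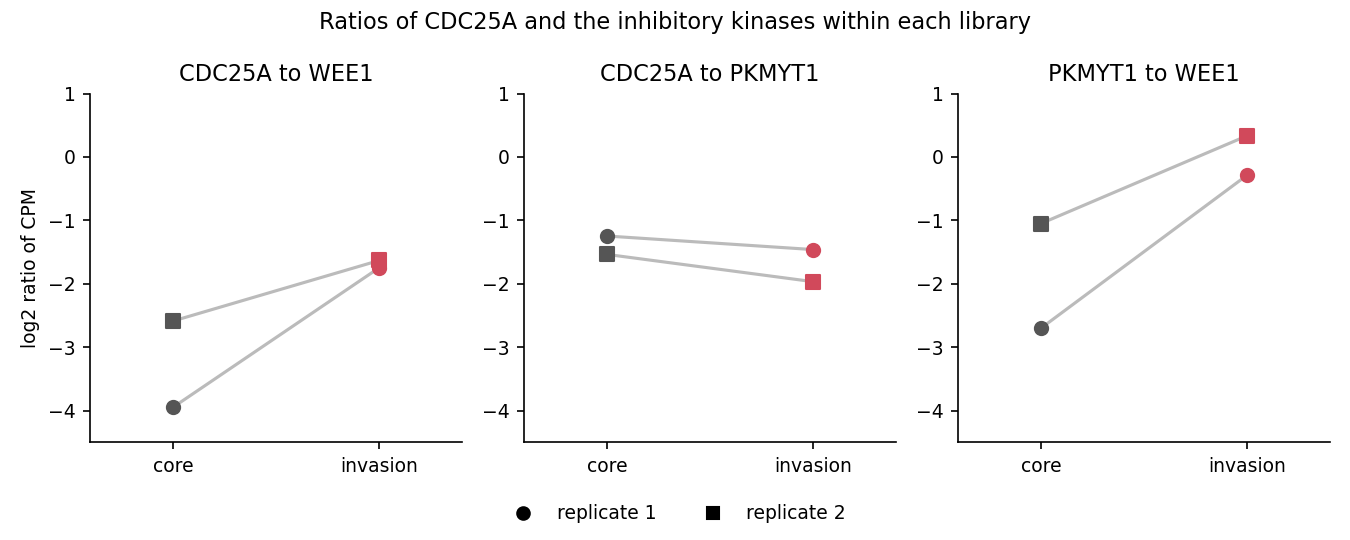
Log2 ratio of the CPM of CDC25A to WEE1, CDC25A to PKMYT1 and PKMYT1 to WEE1 in each library, with lines joining libraries of the same number. The ratios to WEE1 are higher in both invasion zone libraries (mean log2 differences of 1.58 and 1.90), while that of CDC25A to PKMYT1 overlaps between the zones.

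Levels of different genes were compared as CPM per kilobase of the canonical transcript in GENCODE release 44. In the core, CDKN2A was highest at 122 ± 3.34 CPM per kilobase (SD, n = 2), followed by CDKN2C at 57.9 ± 12.5 and WEE1 at 35.7 ± 5.07. These 3 did not overlap with each other in the 2 core libraries. PKMYT1 followed at 18.8 ± 11.7, with a range that overlapped CDKN1A (14.8 ± 1.28), CDKN1B (12.6 ± 1.72) and CDKN2B (10.7 ± 0.172), so its place among them is not resolved. CDKN2D (9.18 ± 2.34) overlapped CDKN2B as well. CDC25A (3.69 ± 1.85) and CDKN1C (1.18 ± 0.244) were the lowest.

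In the invasion zone CDKN2A was again highest (98.1 ± 2.09 CPM per kilobase) and CDKN1C lowest (0.317 ± 0.381). PKMYT1 ranked 2 (57.3 ± 18.1), overlapping CDKN2C at 50.9 ± 6.8, and WEE1 ranked 4 (31.5 ± 0.552). CDKN1A was at 14.8 ± 3.72, CDC25A at 9.15 ± 0.671 and CDKN2D at 8.75 ± 0.635, of which the last 2 overlapped. CDKN1B (6.41 ± 1.18) and CDKN2B (3.59 ± 1.34) ranked 8 and 9. With the length of all exons in place of the canonical transcript, CDKN2A and CDKN1C kept the first and last rank in both zones, but PKMYT1 ranked 7 in the core and 2 in the invasion zone.

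The make-up of each inhibitor family was described on the same per-kilobase scale. Of the summed CIP/KIP level, CDKN1A took 47.9% and 56% in the core and 60.8% and 75.6% in the invasion zone, while CDKN1B took 47.4% and 40.4% in the core and 36.3% and 24.2% in the invasion zone. The share of CDKN1A was higher in both invasion zone libraries than in both core libraries, at a summed CIP/KIP level of 29.1 and 28.1 in the core against 20 and 23 CPM per kilobase. With the length of all exons, added after the values were seen, CDKN1A took 68.4% and 75.2% in the core against 78.8% and 89.2%, so it held most of the sum in both zones on that scale. Among the INK4 genes CDKN2A took 59.2% to 62.8% and CDKN2C 25.8% to 33.1% on the canonical length. CDKN2B took 5.07% and 5.7% in the core and 2.7% and 1.71% in the invasion zone. The INK4 sum was 209 and 190 in the core and 168 and 155 CPM per kilobase in the invasion zone. With the length of all exons CDKN2B took 14.5% and 15.6% in the core against 7.85% and 5.01%, so the size of its share depends on the length assumed, while the lower share in the invasion zone was seen with both lengths.

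The genes around the members were read from lists of their targets, regulators and neighbours. None was called without the replicate block, so the counts that follow are those with an adjusted p under 0.05 with the block (edgeR), where 20% of all genes tested were higher and 20.1% lower. Of the 4 cell cycle CDKs that the members act on, 4 were higher in the invasion zone and 0 lower. CDK1 had 92.5 and 187 CPM in the core against 316 and 414 in the invasion zone (log2 fold change 1.46, adjusted p = 0.000189) and was the only CDK past 2-fold. CDK2 (0.99), CDK6 (0.86) and CDK4 (0.33) were higher by less, with both invasion zone libraries above both core libraries for each. Of the other 2 CDC25 phosphatases, CDC25C, which acts at entry into mitosis, was higher (4.33 and 9.61 against 17.7 and 25.6 CPM, log2 fold change 1.74, adjusted p = 0.000323). CDC25B was lower by 0.44 on the log2 scale (adjusted p = 0.00359), with overlapping zones.

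**Figure D4:**
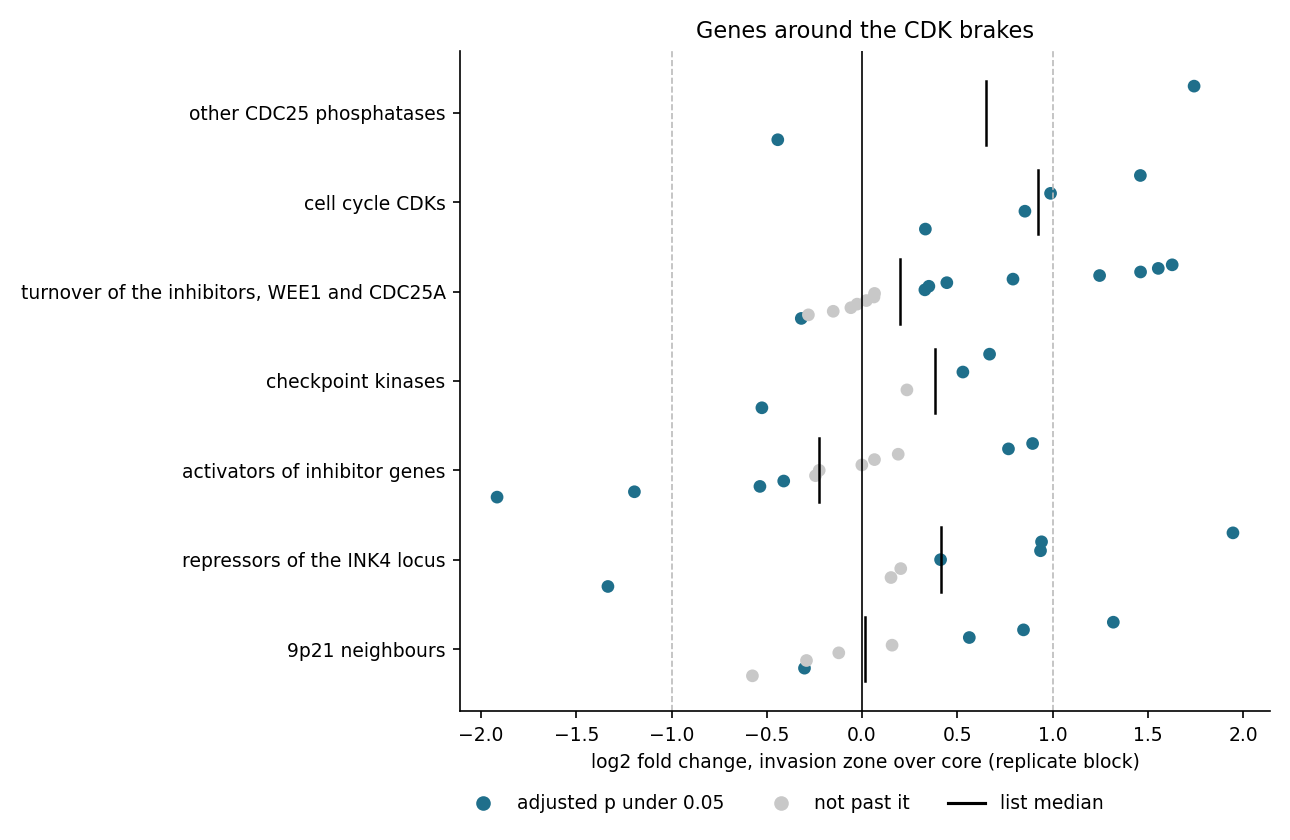
Log2 fold change with the replicate block, invasion zone over core, of each tested gene in 7 lists around the CDK brakes; blue points have an adjusted p under 0.05, grey points do not, black bars are list medians and dashed lines mark a 2-fold change. The cell cycle CDKs lie above 0 throughout, and the other lists hold genes on both sides.

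Genes of protein turnover, which govern how long the inhibitors, WEE1 and CDC25A last as proteins, included several that were higher in the invasion zone. Of 16 tested, 8 were higher and 1 was lower, with a median log2 fold change of 0.20. SKP2 and CKS1B, the receptor and its cofactor that target p27 for degradation, were higher by 0.79 and 1.25 (adjusted p = 0.000762 and 0.000388 by edgeR), while CDKN1B was lower at the RNA level. DTL, the receptor that targets p21 in S phase, was higher by 1.63 (16.8 and 38.6 against 71.1 and 86 CPM). CDC20 (1.56) and PLK1 (1.46), which act in mitosis, were higher as well. Without the block the adjusted p of these 5 genes lay between 0.112 and 0.167. CDC20 and PLK1 also act on many other proteins, so the list does not measure turnover of the members alone.

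Of the 4 checkpoint kinases, which signal DNA damage to the CDC25 phosphatases and WEE1, 2 were higher and 1 lower. CHEK1 (0.67) and CHEK2 (0.53) were the higher ones and ATM (-0.53) was lower, each by less than 2-fold.

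The factors known to control transcription of the inhibitor genes lay on both sides as well. Of 11 activators, 2 were higher and 4 lower, with a median of -0.22. The 3 FOXO factors, which are known to activate CDKN1B, were among the lower ones. FOXO1 had 8.73 and 5.96 CPM in the core against 2.48 and 1.26 in the invasion zone (log2 fold change -1.92, adjusted p = 0.000593). FOXO4 (-1.20) and FOXO3 (-0.54) were lower too, and KLF6 (0.90) and ETS1 (0.77) were higher. Of 7 repressors of the INK4 locus, 4 were higher and 1 lower, with a median of 0.41. ID1, an inhibitor of the ETS and E-protein activators, had 11.9 and 22.4 CPM in the core against 51.6 and 76.1 in the invasion zone (1.95, adjusted p = 9.34e-05), and it is another gene that the study selected on these libraries. The Polycomb subunits EZH2 (0.94) and SUZ12 (0.41) and the T-box repressor TBX2 (0.94) were higher and CBX7 (-1.33), also of Polycomb, was lower.

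The genes next to CDKN2A and CDKN2B on chromosome 9 pointed both ways. Of 8 neighbours, 3 were higher and 1 was lower, with a median log2 fold change of 0.02. MTAP, the metabolic gene beside CDKN2A, had 36.8 and 58 CPM in the core against 62 and 74.4 in the invasion zone (0.56, adjusted p = 0.00526). IFNE (1.32) and MIR31HG (0.85) were higher at low levels, with overlapping zones for MIR31HG, and KLHL9 (-0.30) was lower by less than 2-fold. MTAP, CDKN2A and CDKN2B all had counts in the 4 libraries, so transcripts of the locus were detected in both zones.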

How the data were processed

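RNA from the core and the invasion zone (2 libraries each) was amplified from low input and sequenced. The authors removed ribosomal reads with Bowtie, kept reads above a quality score, aligned them to hg38 with STAR, ran HTSeq-count on the uniquely mapped ones and deposited raw counts. Versions, annotation release and strand setting: not given in the sources used here. Uniquely mapped counting drops reads shared with near-identical copies, and the low-input amplification can add spread at low counts.

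Of 56306 gene rows, 2 were repeats without counts and were left out, and 0 columns belonged to other samples. Columns were assigned by the zone and replicate in their names. In R 4.3.3, edgeR 4.0.16 (TMM factors; genes kept by filterByExpr with a minimum of 10 counts and 15 in total; quasi-likelihood test; Benjamini-Hochberg adjustment) compared the zones, and standard errors came from the test statistic. Alternatives were DESeq2 1.42.0, limma 3.58.1 voom, other scalings, filters and call rules, thinning, each library left out and a replicate block; the block with no fold minimum and the exon-union length were added after the data were seen. The procedure was also run on simulated counts as a check of the code, and no result given here rests on that run. The methods dissect each spheroid into its core and its own invasion zone, and same-numbered columns carry consecutive library numbers, but the sources do not state that the number marks a shared spheroid. Across genes, deviations of same-numbered libraries from their zone means correlated at 0.584. With 2 libraries per zone both pairs give this same value, so the second pair adds no further evidence. Because the pairing is not stated, the fit without the block is given first. The replicate block is given beside it, calling 2 members higher and 2 lower.

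Members, lists and tests were chosen with earlier results of these data known. All members are named. Other genes come from the lists, up to 5 per list by absolute log2 fold change among those with an adjusted p under 0.05 in a fit with or without the block, and genes outside this rule (CDKN2B-AS1, KREMEN2, PAQR4) were named for their relation to a member. The result of 1 list is not reported here. Positions and lengths are from GENCODE 44. Depth ran from 11789243 to 37591782 counts, and counting intervals are exact and cover counting error only. The figures were drawn with matplotlib 3.10.9.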

Additional observations from a re-analysis of the deposited data

How the results depend on the processing

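Over 149 alternative values for the 10 members, 114 kept both direction and side of the threshold, 29 kept direction and became called, and 6 reversed, in 3 members. The reversals were CDKN1A when core replicate 2 (0.0853) or invasion zone replicate 1 (0.23) was left out, CDKN2C when core replicate 1 was (0.0666), and CDKN2D when core replicate 2 (0.2211) or invasion zone replicate 1 (0.0201) was and in limma voom with the replicate block (0.0096). With each library left out in turn, CDKN1A ran from -0.2884 to 0.23, CDKN2C from -0.3815 to 0.0666 and CDKN2D from -0.303 to 0.2211. All genes called went from 0 higher and 0 lower to 588 and 1147 with the replicate block, 3107 and 3116 with the replicate block and no fold minimum, 418 and 774 in DESeq2 with the block, 575 and 1088 in limma voom with the block, 348 and 578 in DESeq2, 81 and 191 without the low count filter, and 495 and 995 at unadjusted p. With 1 library left out there were 8 to 693 higher and 108 to 969 lower, the lone library being assumed to vary like the other zone. The cause was not tested. Members called higher were 2 with the block in all 3 tools, in DESeq2 and at unadjusted p, and 0 to 2 with 1 library left out, 0 being without core replicate 1. Members called lower were 1 without the low count filter, in DESeq2 and at unadjusted p, 2 with the block in all 3 tools, 4 with the block and no fold minimum, and 1 to 3 with 1 library left out. Upper-quartile and RLE scaling, a minimum of 10 counts in each library, limma voom, the older quasi-likelihood method, thinning and no fold minimum called 0 members. Both planned log2 ratios kept their direction, CDC25A to WEE1 between 0.90 and 2.26 and CDC25A to PKMYT1 between -0.57 and -0.07. No fit with both a block and a library left out was possible, because no residual degrees of freedom remain. Depth limits CDKN1C most, with 1 count in invasion zone replicate 2.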
